A study of Mus musculus with 10 samples.

Results

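Amino acids cross membranes through carriers of several unrelated solute carrier families, and the genes of 7 of these families (Slc1, Slc3, Slc6, Slc7, Slc36, Slc38 and Slc43) were followed here through mouse heart cells in culture. Members were chosen by gene symbol alone, and 60 of the 36172 genes listed matched. Of the 60, 31 entered the test, 15 had values but stayed below the filter on low values, and 14 were listed at 0 in every library. Another 3 symbols that begin like those of the families (Slc7a6os, Slc6a20a and Slc6a20b) fell outside the symbol rule. The families also hold carriers of other solutes, such as the monoamine carriers Slc6a2, Slc6a3 and Slc6a4, the creatine carrier Slc6a8 and Slc43a3, which carries purine nucleobases.

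RNA sequencing covered 10 libraries from C57BL/6 mice aged 8 to 12 weeks, made from cells that grew out of the left atrial appendage, a small muscular sac on the atrium of the heart, with 2 libraries for each of 5 cell types. B were primary cells grown out of explants after weak digestion (0.05% trypsin, 0.1% collagenase D) and were positive in the sort for 2 surface proteins, c-kit, a receptor of stem and progenitor cells, and CD45, a phosphatase on the surface of leukocytes. C1, C2 and C3 were B-type cells kept in culture to passage 6, 8 and 10. C1 was sorted as positive for c-kit and negative for CD45, and C2 and C3 as negative for both. A were primary cells after strong digestion (0.25% trypsin, 0.1% collagenase D), positive for c-kit and negative for CD45. The explants of all types were plated in a serum medium supplemented with L-glutamine. Whether the 2 libraries of a type stem from different mice or cultures is not stated in the labels, and p-values therefore reflect a spread between libraries that may be technical.

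Amino acid exchangers of the Slc7 family import 1 amino acid in return for another, and most of them reach the cell surface only when bound to a heavy chain, Slc3a2. Slc1 and Slc38 carriers use the sodium gradient and supply much of a cell's glutamine, alanine and serine. Slc36a1 and Slc38a9 sit largely on lysosomes, where amino acids are reported to the growth kinase complex mTORC1. Macrophages draw arginine through cationic carriers of the Slc7 family, and growing cells depend on leucine import through Slc7a5.

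The deposited values are log2 values with the median of each gene over the 10 libraries removed, and are called centred log2 values below. They show how a gene differs between libraries but not how abundant it is. Only where at least 2 libraries share a lowest value, the floor of 1 normalized read, is the level known. This held for 3 of the 31 tested members (Slc7a8, Slc38a5 and Slc1a3), and the level of 2 more (Slc36a2 and Slc6a17) was inferred from whole-read steps. Depth, read from the spacing of low values, differed 11.5 times between the deepest library (C3) and the shallowest (B). A count of 0 allowed up to between 5.04 and 6.88 normalized reads in the A and B libraries, between 2.00 and 6.12 in C1 and C2, and the floor in C3. In each library 32.9% to 70.5% of low values came to whole reads (to within 0.01), so depths and levels rest on a reading of the table that is not certain.

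The sort labels were checked against marker genes. Ptprc, which encodes CD45, had centred log2 values of 11.46 and 11.41 in the B libraries and lay at the floor in C2 and C3, while the A libraries, labelled CD45 negative, held 0.242% and 2.96% of the mean B level. Kit, which encodes c-kit, had 1.81 and 0.96 in B, then 2.43 and 3.35 in C1, -2.71 and -1.07 in C2, -2.71 and -2.71 (its floor) in C3, and -0.96 and 3.47 in A. All 14 macrophage markers in the table were above their A replicate 1 value in A replicate 2, where they stood at a median of 2.14% of B, against a median of 0.15% in A replicate 1. The summed normalized reads of the 6 macrophage markers with a known level were 23880 and 24670 in B, then 7.67 to 9.05 in C1, 6.07 to 9.08 in C2, 12.1 to 12.6 in C3, and 18.1 and 418.5 in A. Each gene at the floor adds 1 to such a sum, so a sum of 6 means that all 6 genes are at the floor. In bulk RNA, fewer cells of a type and less RNA per cell cannot be told apart.

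A value was called when the limma test gave a Benjamini-Hochberg adjusted p under 0.05 over all 14253 tested genes and the log2 difference was at least 1. By this rule 30 of the 31 tested transporters were called in at least 1 of 6 comparisons, and the exception was Slc6a17. The share of all genes called at least once was not computed, so this count has no background. Each comparison alone called 20.4% to 41.4% of all tested genes. The comparisons share libraries and are not independent of each other. Of the 92 calls they gave, 64 were kept in each of the 10 fits that leave out 1 library, and the other 28 were lost in at least 1 of them.

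B cells differed from A cells in 20 of 31 transporters (64.5%), where 26.9% of all tested genes were called. In that comparison 13 transporters were higher in B, a share of 41.9% against 14.5% of all genes, and 7 were lower, a share of 22.6% against 12.4%. In a fit of the 4 compared libraries alone, 11 transporters (6 higher and 5 lower) and 2538 genes were called. C3 cells differed from B cells in 23 transporters (74.2%) against a background of 41.4%, and here 18 were lower (58.1% against 24.7%) and 5 higher (16.1% against 16.7%). Under quantile normalization 13 were lower and 5 higher in C3 than in B (2352 and 2684 of all genes). The median difference of C3 minus B was -1.33 over the transporters and -0.06 over all tested genes without it. The filter can act only on genes of known level, so these shares describe the 31 tested members and not all 60.

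Between neighbouring passages the shares lay nearer the background. C1 minus B gave 15 calls (48.4%, against 33.7% of all genes), 7 higher and 8 lower, with backgrounds of 12.6% and 21.1%, but under quantile normalization 8 were higher and 3 lower (2375 and 2244 of all genes). C2 minus C1 gave 9 calls (29%, against 20.4%), 5 higher (background 12.2%) and 4 lower (8.18%), and 6 of these 9 were lost in at least 1 fit without a library. C3 minus C2 gave 12 calls (38.7%, against 27.9%), 4 higher (11.6%) and 8 lower (16.2%), and under quantile normalization 4 were higher and 5 lower (2258 and 1846 of all genes). C1 minus A, the comparison of both types sorted as positive for c-kit and negative for CD45, gave 13 calls (41.9%, against 26.6%), 6 higher (10.1%) and 7 lower (16.6%). In a fit of the 4 compared libraries C1 minus A had 6 transporters and 2375 genes called. Under quantile normalization, of 31 transporters and 14253 genes, C1 minus B had 11 and 4619 called and C3 minus C2 had 9 and 4104. C2 minus C1 had 12 and 3978 and C1 minus A had 11 and 4349. The share of transporters was then nearly that of all genes in C3 minus C2, and slightly above it in C1 minus B and C1 minus A.

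**Figure D1:**
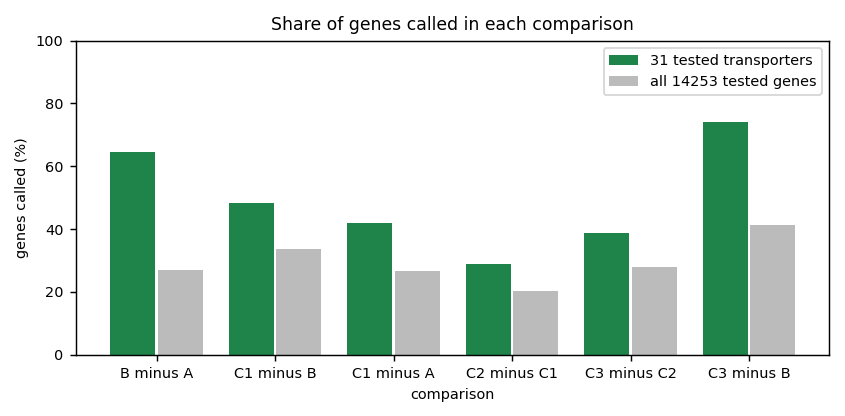
Share of genes called (y axis, %) in each of the 6 comparisons (x axis), for the 31 tested transporters (green) and for all 14253 tested genes (grey). In the main fit, shown here, the transporter share is above the background in each comparison, by most in B minus A (64.5% against 26.9%) and C3 minus B (74.2% against 41.4%). Under quantile normalization, not drawn, it is near the background in C3 minus C2, C1 minus B and C1 minus A.

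Quantile normalization, an alternative that forces all libraries to 1 distribution, moved the median of all genes by 0.12 in C1 minus B and in C3 minus B, and ended 18 transporter calls while adding 5. The A libraries were the least alike, with a root mean square difference between replicates of 1.58 over the transporters, against 0.48 to 0.59 in the other types.

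**Figure D2:**
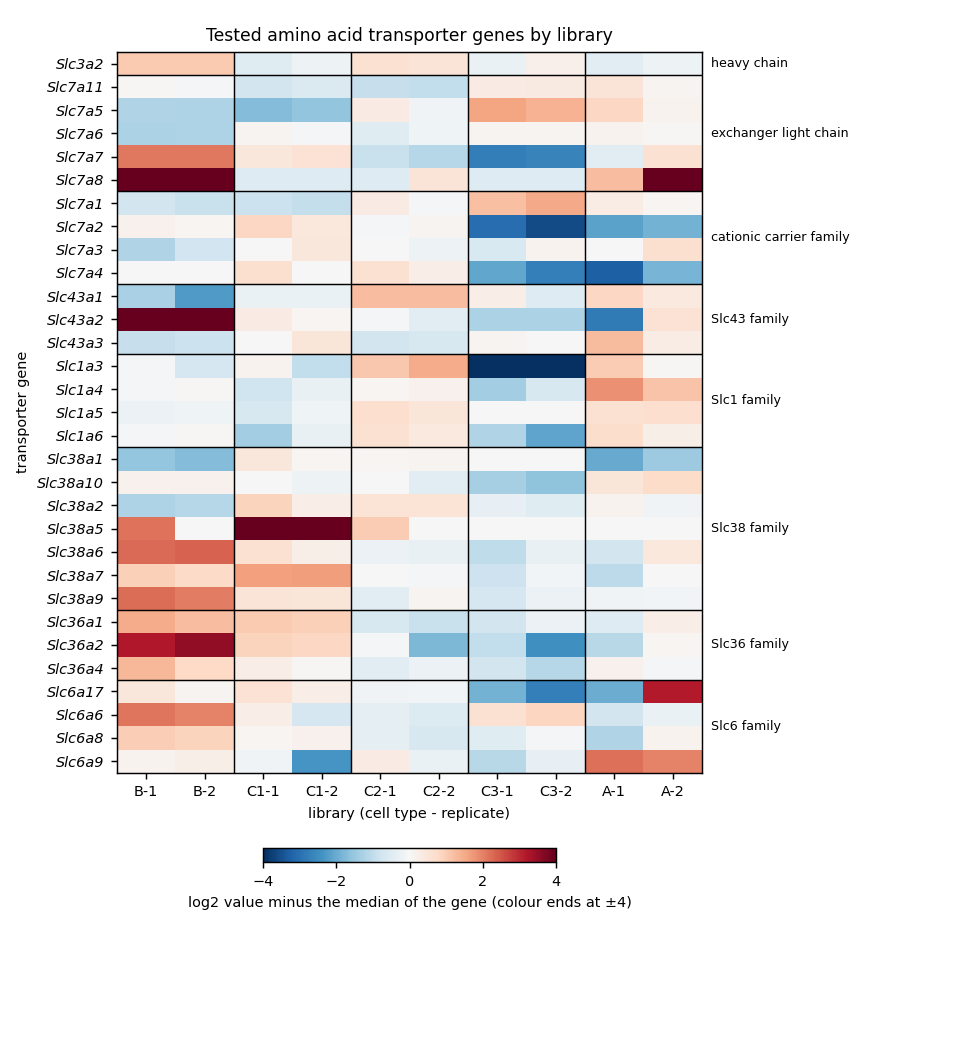
Centred log2 value (colour, cut at 4 above and below the median) of the 31 tested transporters (y axis, grouped by role) in the 10 libraries (x axis, B, C1, C2, C3, A). Slc7a8 and Slc43a2 are darkest in both B libraries, Slc38a5 in both C1 libraries, and Slc1a3 is lowest in both C3 libraries.

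The heavy chain Slc3a2, also known as CD98, is the shared partner of the Slc7 exchangers. It lies on the minus strand of chromosome 19 (chr19:8706882-8723369, GRCm38). Slc3a2 had centred log2 values of 1.05 and 1.05 in B, then -0.50 and -0.21 in C1, 0.61 and 0.52 in C2, -0.27 and 0.19 in C3, and -0.46 and -0.19 in A. Both B libraries were the highest of the 10, and the C2 libraries came next. The gene rose in B over A by 1.37 ± 0.20 (log2 difference ± SE, adjusted p = 0.00202) and fell in C1 below B (-1.40 ± 0.20, adjusted p = 0.00126). In C3 it was also below B (-1.09 ± 0.20, adjusted p = 0.00291), a call that ended without C3 replicate 1 (-0.86) and under quantile normalization (-0.71). The other heavy chain, Slc3a1, which pairs with kidney and gut exchangers, stayed below the filter, with 5.54 normalized reads at most, in A replicate 2.

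The light chains split into genes that were high in B and genes that were low there. Slc7a8 (LAT2, an exchanger of neutral amino acids) showed the widest range of any transporter with a known level. It lies at chr14:54722209-54781946 on the minus strand. Its level was 3395 and 3047 normalized reads in B, then 1.01 and 1.00 in C1, 1.00 and 2.07 in C2, 1.00 and 1.00 in C3, and 3.36 and 102 in A. The B libraries lay far above all others, C1, C2 and C3 were at or within 2 reads of the floor, and the A libraries lay far apart. Slc7a8 reached the 10 normalized reads of the filter only in both B libraries and A replicate 2. Its entry into the test thus rested on B, and under the stricter filter it was not tested. The values that let it in are also those compared, so its p-values for B are descriptive.

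The B level of Slc7a8 was 64.5 times that of A (95% counting interval 49.5 to 85.8, over reads summed per type), with a fitted log2 difference of 7.44 ± 1.36 and an adjusted p of 0.00508. This difference was 4.97 without A replicate 1 and 9.90 without A replicate 2, and it was not called under quantile normalization (3.12, adjusted p = 0.114) or in a fit of the 4 compared libraries alone (adjusted p = 0.0776). C3 lay at least 3220-fold below B (adjusted p = 0.000389). The fitted differences of C3 minus B and C1 minus B were -7.05 (adjusted p = 0.00413) and -7.15 (adjusted p = 0.00442) under quantile normalization, against -11.65 each without it. C1 held 1 read in all, and B over C1 was 7970 times (interval 1430 to 315000, adjusted p = 0.000557). The call of C1 below A (adjusted p = 0.0426) was lost in 8 of the 10 fits that leave out 1 library, with values between -6.67 without A replicate 1 and -1.74 without A replicate 2.

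Slc7a7 (y+LAT1, which exchanges cationic against neutral amino acids and is known in macrophages) was also highest in B, with a narrower range. Its centred log2 values were 2.11 and 2.11 in B, then 0.46 and 0.59 in C1, -0.88 and -1.14 in C2, -2.76 and -2.68 in C3, and -0.46 and 0.62 in A. Both libraries of each later passage lay below both of the one before it, and the A values fell between those of C2 and B. The gene was lower in C3 than in B (-4.83 ± 0.32, adjusted p = 3.56e-05) and higher in B than in A (2.03 ± 0.32, adjusted p = 0.00285), and under quantile normalization these were -3.17 and 1.37. The steps from B to C1 (-1.59 ± 0.32) and from C2 to C3 (-1.71 ± 0.32) were called but not under quantile normalization (-0.62 and -0.43), and the step from C1 to C2 (-1.54) was lost without C1 replicate 2 (-1.47) or C2 replicate 2 (-1.41). In a fit of the 4 compared libraries alone B minus A was not called (adjusted p = 0.058).

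Slc7a6 (y+LAT2), which carries out the same exchange as Slc7a7, ran the other way in B. Its centred log2 values were -1.27 and -1.22 in B, then 0.10 and -0.06 in C1, -0.47 and -0.17 in C2, 0.12 and 0.11 in C3, and 0.13 and 0.06 in A. Both B libraries lay below all 8 others. Slc7a6 was lower in B than in A (-1.33 ± 0.15, adjusted p = 0.000677), higher in C1 than in B (1.26 ± 0.15, adjusted p = 0.00053) and higher in C3 than in B (1.35 ± 0.15, adjusted p = 0.000272).

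Slc7a5 (LAT1, the main carrier of leucine into growing cells) was low in B and C1 and high in C3. It lies at chr8:121881150-121907694 on the minus strand. Its centred log2 values were -1.20 and -1.25 in B, then -1.72 and -1.57 in C1, 0.34 and -0.13 in C2, 1.57 and 1.40 in C3, and 0.83 and 0.13 in A. The C3 libraries were the highest and the C1 libraries the lowest, with no overlap between any of B, C1, C2 and C3. Slc7a5 rose in C2 over C1 (1.76 ± 0.26, adjusted p = 0.00302), in C3 over C2 (1.38 ± 0.26, adjusted p = 0.00535) and in C3 over B (2.71 ± 0.26, adjusted p = 0.000164). It was lower in B than in A (-1.70 ± 0.26, adjusted p = 0.00249) and lower in C1 than in A (-2.13 ± 0.26, adjusted p = 0.00113), while C1 minus B missed the threshold (-0.43, adjusted p = 0.208). These 5 calls were kept in each of the 10 fits without 1 library.

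Slc7a11 (xCT, which imports cystine for glutathione synthesis and exports glutamate) varied little. Its centred log2 values were 0.05 and -0.05 in B, then -0.73 and -0.59 in C1, -0.93 and -0.97 in C2, 0.32 and 0.37 in C3, and 0.52 and 0.10 in A. The C2 libraries were lowest, followed by C1. Its 1 call was C3 over C2 (1.30 ± 0.16, adjusted p = 0.00116).

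Slc7a11 and Slc7a7 carry in their promoters the core of the C/EBP-ATF response element, through which the factor ATF4 acts when amino acids run short. RefSeq promoter windows (250 bases before to 50 after a transcript start, GRCm38.p6) were at hand for 42 of the 60 members, 21 of them tested. The letters TGATGNAA, searched on both strands, occurred in 4 of the 63 windows of members (6.35%) and in 3.97% of all 32851 windows, and the 3 members were Slc7a11, Slc7a7 and Slc1a4. The stretches below show the matches in capitals, read 5′ to 3′ on the strand of the gene, which is the minus strand for both. The first is chr3:50443626-50443704, from position -91 to -13 relative to a transcript start of Slc7a11, with 2 matches on opposite strands. The second is chr14:54418051-54418110, from position -166 to -107 relative to a transcript start of Slc7a7, with 1 match. Both stretches lie before every RefSeq start of the gene. Slc7a7 also has the match TGATGCAA, at -1 from a transcript start and -243 from another. That match does not lie before every start and is not shown.
Slc7a11: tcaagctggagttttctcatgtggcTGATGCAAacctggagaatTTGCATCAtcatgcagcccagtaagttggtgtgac
Slc7a7: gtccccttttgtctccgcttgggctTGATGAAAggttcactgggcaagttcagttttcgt
The core of the antioxidant response element, TGACNNNGC on both strands, was found in 11 of the 63 windows of members (17.5%) and in 12.4% of all windows, and 9 members held it. The 2 stretches with TGATGNAA are shown because they lie before every RefSeq start of their gene, while the match of Slc1a4 spans a start. A match is a description of sequence and was not tied to binding of a factor in these cells.

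**Figure D3:**
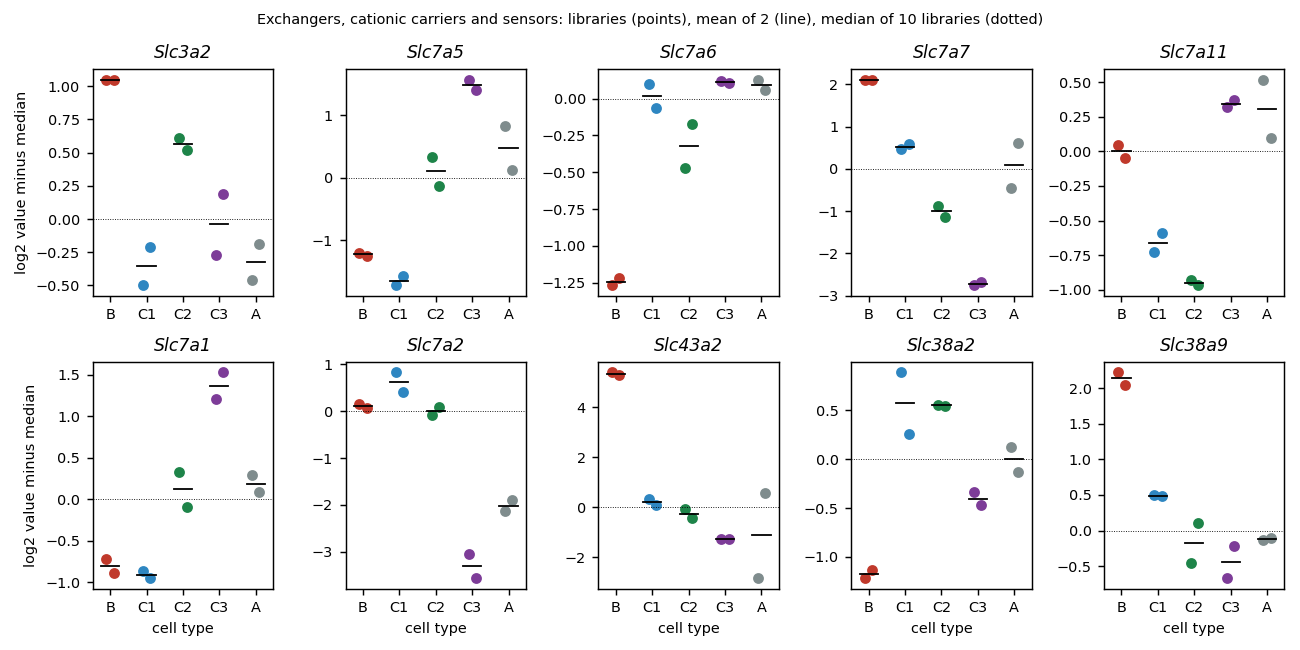
Centred log2 value (y axis, its own scale in each panel) of 10 transporters by cell type (x axis), with each library as a point, the mean of 2 as a line and the median of all 10 libraries dotted. Slc7a5 and Slc7a1 are highest in C3, Slc7a7, Slc43a2 and Slc38a9 are highest in B, and Slc7a2 is lowest in C3.

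Cationic carriers bring in arginine and lysine, and the pair in common use parted in C3. Slc7a1 (CAT1, found in most cells) had centred log2 values of -0.72 and -0.89 in B, then -0.86 and -0.95 in C1, 0.33 and -0.09 in C2, 1.21 and 1.53 in C3, and 0.29 and 0.09 in A. Slc7a2 (CAT2, known for arginine uptake by activated macrophages) had 0.16 and 0.07 in B, then 0.83 and 0.42 in C1, -0.07 and 0.10 in C2, -3.05 and -3.57 in C3, and -2.14 and -1.90 in A. Both C3 libraries were thus the highest of all for Slc7a1 and the lowest of all for Slc7a2.

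Slc7a1 rose in C3 over C2 (1.25 ± 0.19, adjusted p = 0.00248) and over B (2.18 ± 0.19, adjusted p = 0.000125). Its calls of C2 over C1 (1.03, lost without C1 replicate 2 at 0.98 and without C2 replicate 1 at 0.82) and of C1 below A (-1.09, lost without A replicate 1 at -1.0) lay at the edge of the threshold, and both also ended under quantile normalization. Slc7a2 fell in C3 below C2 (-3.33 ± 0.22, adjusted p = 0.000112) and below B (-3.43 ± 0.22, adjusted p = 3.42e-05), and was higher in B than in A (2.14 ± 0.22, adjusted p = 0.00058) and in C1 than in A (2.64 ± 0.22, adjusted p = 0.000308). All 4 of these were kept without any 1 library, with quantile values for the falls in C3 of -2.21 and -2.26.

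Slc7a4, a relative of the cationic carriers whose substrate is not settled, had centred log2 values of 0.03 and -0.02 in B, then 0.64 and 0.02 in C1, 0.61 and 0.26 in C2, -2.09 and -2.73 in C3, and -3.26 and -1.86 in A. It was low in C3 and A, as Slc7a2 was. Slc7a4 fell in C3 below C2 (-2.85 ± 0.47, adjusted p = 0.00317) and below B (-2.41 ± 0.47, adjusted p = 0.00394, -1.60 under quantile normalization). It was higher in B than in A (2.56 ± 0.47, adjusted p = 0.00516), a difference of 1.86 without A replicate 1 and 3.26 without A replicate 2, and higher in C1 than in A (2.89 ± 0.47), which was 2.19 and 3.59 without the same libraries. Both calls against A ended in fits of the 4 compared libraries (adjusted p = 0.0594 and 0.0576). Slc7a3 (CAT3) ranged only from -1.21 in B replicate 1 to 0.64 in A replicate 2. Its calls of B below A (-1.33, lost without A replicate 2 at -1.01 or B replicate 1 at -1.11) and of C1 over B (1.22, lost without B replicate 1 at 1.00 or C1 replicate 2 at 1.00) each rested on single libraries.

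The Slc43 family carries large neutral amino acids by facilitated diffusion. Slc43a2 (LAT4, chr11:75531694-75577575 on the plus strand) had centred log2 values of 5.40 and 5.29 in B, then 0.33 and 0.08 in C1, -0.08 and -0.42 in C2, -1.26 and -1.28 in C3, and -2.83 and 0.59 in A. The B libraries lay far above the rest, and the A libraries took the lowest and the third highest place. Slc43a2 was higher in B than in A (6.46 ± 0.93, adjusted p = 0.002), by 4.75 without A replicate 1, 8.17 without A replicate 2 and 4.20 (adjusted p = 0.016) under quantile normalization, and the call ended in a fit of the 4 compared libraries (adjusted p = 0.0543).

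Slc43a2 fell in C3 below B (-6.61 ± 0.93, adjusted p = 0.000901, but -3.80 and adjusted p = 0.0137 under quantile normalization) and in C1 below B (-5.14 ± 0.93, adjusted p = 0.00366, but -2.63 and adjusted p = 0.0557 under quantile normalization). Slc43a1 (LAT3) had -1.31 and -2.27 in B, then -0.26 and -0.26 in C1, 1.24 and 1.23 in C2, 0.26 and -0.51 in C3, and 0.83 and 0.40 in A. B was thus low for Slc43a1 where it was high for Slc43a2. Slc43a1 was lower in B than in A (-2.41 ± 0.37, adjusted p = 0.00249) and higher in C3 than in B (1.66 ± 0.37, adjusted p = 0.00689). Its steps C1 over B (1.53), C2 over C1 (1.5) and C3 below C2 (-1.36) were called with all 10 libraries, at adjusted p of 0.012, 0.0199 and 0.022. The step from B to C1 was lost without B replicate 2 (1.05) or either C1 library (1.53 and 1.53), that from C1 to C2 without any of its 4 libraries (1.49 to 1.5), and that from C2 to C3 without either C2 library (-1.36 and -1.36) or C3 replicate 2 (-0.98). Slc43a3, the nucleobase carrier, was lower in B than in A (-1.66 ± 0.31, adjusted p = 0.00579, 0.0682 in a fit of the 4 compared libraries). Its call of C1 over B (1.11) was lost without either B library (1.08 and 1.14) or C1 replicate 2 (0.86).

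**Figure D4:**
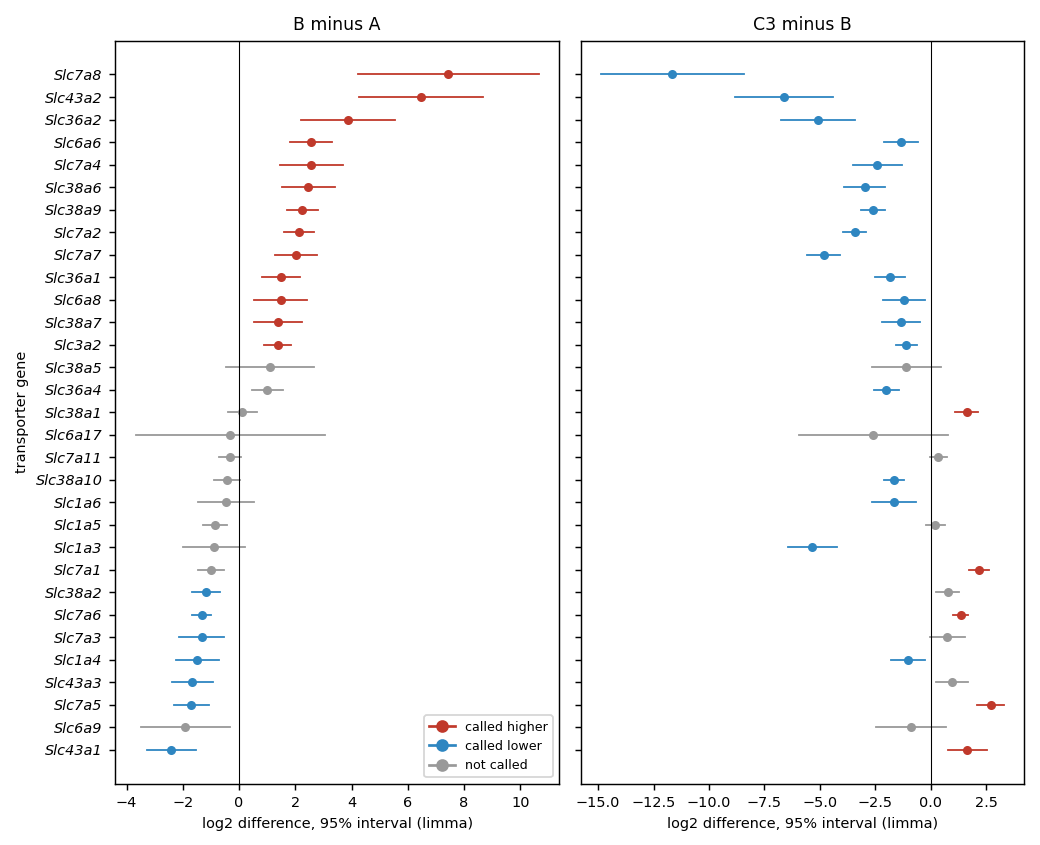
Log2 difference (x axis, limma, with 95% interval) of the 31 tested transporters (y axis) for B minus A (left) and C3 minus B (right), coloured by call. Slc7a8 and Slc43a2 lie furthest right in B minus A (7.44 and 6.46) and furthest left in C3 minus B (-11.65 and -6.61). The C3 values of Slc7a8 and Slc1a3 are at the floor, so their differences there depend on it. Slc7a8 passed the filter through B, so its calls are descriptive.

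Slc1 carriers take up glutamate or small neutral amino acids. Slc1a3 (GLAST, a glutamate and aspartate carrier, chr15:8634124-8710764 on the minus strand) had a known level. It was 50.5 and 32.7 normalized reads in B, then 57.4 and 26.0 in C1, 110 and 146 in C2, 1.00 and 1.00 in C3, and 106 and 53.7 in A. Both C3 libraries, the deepest of the series, were at the floor, while all 8 others held at least 18 reads. Slc1a3 lay at least 128-fold lower in C3 than in C2 (adjusted p = 0.000109) and at least 41.6-fold lower in C3 than in B (adjusted p = 0.000111). The fitted differences were -6.99 and -5.34, and under quantile normalization -5.85 and -3.67. C2 was above C1 by 1.72 ± 0.46 (adjusted p = 0.0277), a call lost without C1 replicate 2 (1.14) or either C2 library (1.92 and 1.51).

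Slc1a4 (ASCT1), which exchanges alanine, serine and cysteine, was highest in A, with centred log2 values of -0.05 and 0.05 in B, then -0.79 and -0.29 in C1, 0.09 and 0.17 in C2, -1.38 and -0.64 in C3, and 1.83 and 1.13 in A. It was lower in C1 than in A (-2.02 ± 0.33, adjusted p = 0.00323). B minus A was -1.48 ± 0.33 (adjusted p = 0.0109, lost without either B library at -1.43 and -1.52). The 2 calls in C3 lay close to the threshold, at -1.14 against C2 (lost without either C2 library at -1.18 and -1.10, or C3 replicate 1 at -0.77) and at -1.01 against B (lost without either B or C2 library at -1.05, -0.96, -1.01 and -1.01, or C3 replicate 1 at -0.64). Slc1a5 (ASCT2, a glutamine carrier of dividing cells) had -0.25 and -0.17 in B, then -0.65 and -0.18 in C1, 0.68 and 0.47 in C2, 0.03 and -0.03 in C3, and 0.60 and 0.68 in A. Its range was narrow, with B and C1 below the other types. Its 1 call was C1 below A (-1.06 ± 0.18, adjusted p = 0.00402), which ended without C1 replicate 1 (-0.82), under quantile normalization (-0.94) and in a fit of the 4 compared libraries. Slc1a6, a glutamate carrier known from Purkinje cells, had -0.04 and 0.04 in B, then -1.38 and -0.29 in C1, 0.61 and 0.39 in C2, -1.21 and -2.11 in C3, and 0.69 and 0.24 in A. It fell in C3 below C2 (-2.16 ± 0.42, adjusted p = 0.00591), while its call of C3 below B (-1.66, adjusted p = 0.0118) was lost without B replicate 2 (-1.62) or C3 replicate 2 (-1.21). Its calls of C1 below A (adjusted p = 0.0422) and C2 over C1 (adjusted p = 0.0453) were lost in 7 and 5 of the 10 fits without a library, at -1.84 to -0.75 and 0.79 to 1.88 over all 10.

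**Figure D5:**
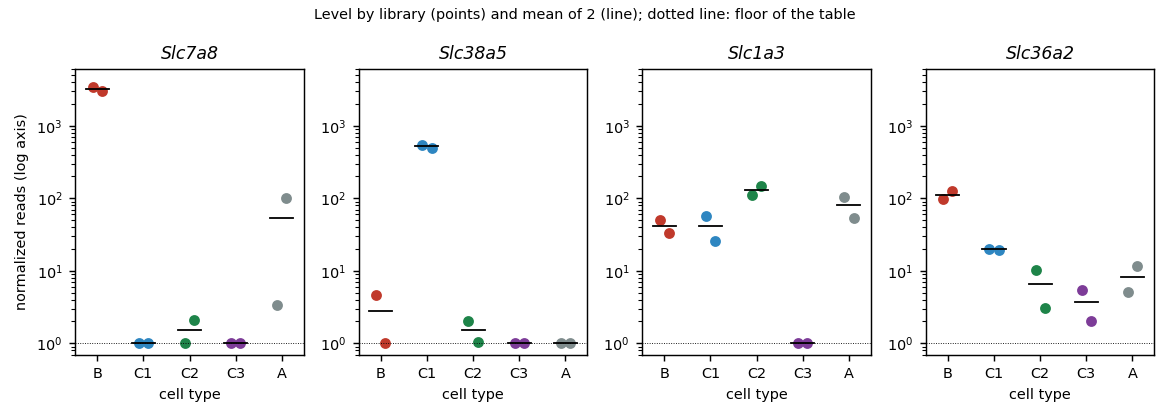
Normalized reads (y axis, log scale) of the 3 transporters with a known level that entered the test and of Slc36a2, whose level was inferred, by cell type (x axis), with each library as a point, the mean of 2 as a line and the floor of 1 dotted. Slc7a8 averages 3220 in B and Slc38a5 522 in C1, both far above their other types, and Slc1a3 is at the floor in C3 alone.

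The Slc38 family holds sodium-coupled carriers of glutamine and other small neutral amino acids. Slc38a5 (SNAT5), on chromosome X (chrX:8271133-8280179, plus strand), stood apart in C1. Its level was 4.59 and 1.00 normalized reads in B, then 546 and 498 in C1, 2.04 and 1.04 in C2, 1.00 and 1.00 in C3, and 1.00 and 1.00 in A. Only the C1 libraries rose above the limit set by a count of 0, and B and C2 held 2 reads each. Slc38a5 thus passed the filter of 10 normalized reads in 2 libraries through C1 alone. It entered the test by the same values that are compared, so its p-values for C1 are descriptive. Under the stricter filter, which asks for 4 libraries, it was not tested. C1 exceeded B 255 times (95% counting interval 70.6 to 2110, adjusted p = 0.000136) and C2 376 times (interval 104 to 3110, adjusted p = 0.000284), and was at least 90.8-fold above A (adjusted p = 0.000177). The fitted difference of C1 minus B was 7.93, and 9.03 without B replicate 1 and 6.83 without B replicate 2.

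Slc38a1 and Slc38a2 are the general carriers of the family. Slc38a1 (SNAT1) had centred log2 values of -1.54 and -1.72 in B, then 0.46 and 0.08 in C1, 0.09 and 0.11 in C2, -0.02 and 0.02 in C3, and -2.03 and -1.46 in A. Both primary types were low and all 3 cultured types were high, without overlap. Slc38a1 rose in C1 over B (1.90 ± 0.22, adjusted p = 0.000551), in C1 over A (2.02 ± 0.22, adjusted p = 0.000746) and in C3 over B (1.63 ± 0.22, adjusted p = 0.000752). Slc38a2 (SNAT2, which is induced when amino acids are scarce) had -1.22 and -1.14 in B, then 0.89 and 0.26 in C1, 0.56 and 0.55 in C2, -0.34 and -0.47 in C3, and 0.13 and -0.13 in A. The B libraries were lowest. It was lower in B than in A (-1.18 ± 0.22, adjusted p = 0.00538) and higher in C1 than in B (1.75 ± 0.22, adjusted p = 0.000722), while C3 minus B reached 0.77, under the required difference of 1.

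Slc38a9, Slc38a7 and Slc38a6 were all higher in B than in A and lower in C3 than in B. Slc38a9, the lysosomal arginine sensor of mTORC1, had centred log2 values of 2.22 and 2.05 in B, then 0.50 and 0.48 in C1, -0.46 and 0.10 in C2, -0.67 and -0.22 in C3, and -0.14 and -0.10 in A. The B libraries were well above the others and C1 came next. The differences were 2.25 ± 0.23 for B minus A (adjusted p = 0.000511), -1.65 ± 0.23 for C1 minus B (adjusted p = 0.00117, lost under quantile normalization at -0.70) and -2.58 ± 0.23 for C3 minus B (adjusted p = 0.000122). Under quantile normalization B minus A was 1.54 and C3 minus B -1.70. Slc38a7, which carries glutamine out of lysosomes, was highest in C1, with 0.95 and 0.77 in B, then 1.65 and 1.67 in C1, 0.01 and -0.09 in C2, -0.84 and -0.11 in C3, and -1.05 and -0.01 in A. It was higher in C1 than in A (2.19 ± 0.36, adjusted p = 0.00352, 0.0513 in a fit of the 4 compared libraries). Its other calls were B over A (1.39, lost without A replicate 1 at 0.87 or either B library at 1.30 and 1.48), C2 below C1 (-1.70, lost without any of the 4 libraries, at -1.75 to -1.65) and C3 below B (-1.33, lost without either B library at -1.24 and -1.42 or C3 replicate 1 at -0.97).

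Slc38a6, an orphan of the family, had 2.28 and 2.35 in B, then 0.61 and 0.24 in C1, -0.24 and -0.30 in C2, -1.01 and -0.31 in C3, and -0.75 and 0.43 in A. The B libraries were again the highest. It was higher in B than in A (2.47 ± 0.40, adjusted p = 0.00304), by 1.88 without A replicate 1, 3.06 without A replicate 2 and 1.73 under quantile normalization. It was lower in C3 than in B (-2.98 ± 0.40, adjusted p = 0.000696, -1.92 under quantile normalization) and in C1 than in B (-1.89 ± 0.40, adjusted p = 0.00684, lost under quantile normalization at -0.88). Slc38a10 fell in C3 below B (-1.64 ± 0.19, adjusted p = 0.000394) and below C2 (-1.25 ± 0.19, adjusted p = 0.00233, but -0.69 under quantile normalization).

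In the Slc36 family, Slc36a1 and Slc36a2 move small amino acids together with protons, Slc36a1 in part out of lysosomes. Slc36a2 (PAT2), at an inferred level, had 98.6 and 127 normalized reads in B, then 20.2 and 19.4 in C1, 10.2 and 3.11 in C2, 5.44 and 2.00 in C3, and 5.04 and 11.5 in A. B was highest and C1 next, and the other 3 types overlapped. Summed over libraries, B over A was 14.2 times (counting interval 7.21 to 31.8, adjusted p = 0.0048) and B over C3 32.7 times (interval 21.8 to 50.3, adjusted p = 0.000797). The fitted difference of B minus A was 3.28 without A replicate 1 and 4.47 without A replicate 2, and that of C3 minus B was -5.80 without C3 replicate 1 and -4.36 without C3 replicate 2. Under quantile normalization they were 2.58 and -3.15. C1 minus B (-2.50, adjusted p = 0.0216) was lost without any of its 4 libraries, at -2.68 to -2.32, and under quantile normalization at -0.74.

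Slc36a4 (PAT4) had centred log2 values of 1.33 and 0.79 in B, then 0.27 and 0.04 in C1, -0.44 and -0.25 in C2, -0.75 and -1.15 in C3, and 0.17 and -0.04 in A. Both libraries of each later passage lay below both of the one before it. Its 1 call was C3 below B (-2.01 ± 0.23, adjusted p = 0.000381, -1.38 under quantile normalization). Slc36a1 (PAT1, a lysosomal carrier linked to mTORC1) was high in B and C1, at 0.94 to 1.47, and between -0.89 and 0.25 in the other 6 libraries. It was higher in B than in A (1.49 ± 0.29, adjusted p = 0.00648, 0.0646 in a fit of the 4 compared libraries), and lower in C2 than in C1 (-1.77 ± 0.29, adjusted p = 0.00439, -2.55 under quantile normalization) and in C3 than in B (-1.85 ± 0.29, adjusted p = 0.00141). Its call of C1 over A (1.13) was lost without A replicate 1 (0.74) or either C1 library (1.08 and 1.19).

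Among the Slc6 carriers, which use sodium and chloride, 4 of 18 members were tested. Slc6a6 (the taurine carrier) had centred log2 values of 2.14 and 1.98 in B, then 0.27 and -0.68 in C1, -0.39 and -0.54 in C2, 0.60 and 0.85 in C3, and -0.73 and -0.27 in A. B was highest and C3 next. It was higher in B than in A (2.56 ± 0.32, adjusted p = 0.00111) and lower in C1 than in B (-2.26 ± 0.32, adjusted p = 0.00121), and under quantile normalization these were 1.92 and -1.43. C3 over C2 (1.19) was lost without any of its 4 libraries (1.06 to 1.32), and C3 below B (-1.34) without B replicate 1 (-1.25) or C3 replicate 1 (-1.21) and under quantile normalization (-0.51).

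Slc6a9 (GlyT1, a glycine carrier) had 0.13 and 0.23 in B, then -0.13 and -2.35 in C1, 0.34 and -0.28 in C2, -1.12 and -0.33 in C3, and 2.21 and 1.97 in A. The A libraries were the highest, and the C1 libraries lay far apart. It was lower in C1 than in A (-3.33 ± 0.67, adjusted p = 0.00737), with a difference of -4.44 without C1 replicate 1 and -2.22 without C1 replicate 2, and the call ended in a fit of the 4 compared libraries (adjusted p = 0.0808). B minus A, at -1.91 ± 0.67, missed the threshold (adjusted p = 0.0588) but passed it without either C1 library (adjusted p = 0.00707). Slc6a8 was called higher in B than in A (1.48) and lower in C3 than in B (-1.22). Its first call was lost without A replicate 1 (0.81) or either B library (1.44 and 1.51), and was 2.15 without A replicate 2, and the second was lost in 8 of 10 fits without a library, at -1.42 to -1.02. Slc6a17, a vesicular carrier of neutral amino acids known from neurons, had an inferred level of 9.18 and 7.24 normalized reads in B, then 10.1 and 8.01 in C1, 6.12 and 6.21 in C2, 1.81 and 1.00 in C3, and 1.68 and 61.0 in A. The A libraries lay furthest apart, with 1 read in A replicate 1, and no comparison was called with all 10 libraries. Without either A library C3 minus B (-2.60, adjusted p = 0.000525) and C3 minus C2 (-2.20, adjusted p = 0.00183) were called, as they were in fits of the 4 compared libraries (adjusted p = 0.00697 and 0.0241). Without A replicate 1 alone, B minus A (-2.90) and C1 minus A (-2.76) were called as well. Without A replicate 2 alone, both were called in the opposite direction, so the sign against A depended on which A library was kept.

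The 15 members below the filter reached at most 19.7 normalized reads in any library. That value was Slc6a7 in B replicate 2, and Slc6a19, Slc7a15, Slc1a2, Slc38a4 and Slc3a1 followed with peaks of 9.18, 8.77, 8.22, 7.63 and 5.54. Slc6a19, a gut and kidney carrier of neutral amino acids, had 4 and 5 reads in the B libraries and lay at the floor in the other 8. Another 8 (Slc1a7, Slc38a3, Slc38a8, Slc6a4, Slc6a15, Slc7a10, Slc7a13 and Slc7a14) did not exceed 2.29. Listed at 0 throughout were Slc1a1, Slc36a3, Slc38a11, Slc6a2, Slc6a3, Slc6a5, Slc6a11, Slc6a12, Slc6a13, Slc6a14, Slc6a16, Slc6a18, Slc7a9 and Slc7a12, many of them known from neurons, kidney or gut.

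Macrophage markers were higher in B than in A in 14 of 14 cases, and so were 13 of the 31 transporters. In the same comparison 7 of 11 fibroblast markers were lower, and 5 of 8 mesothelial and 2 of 6 endothelial markers were higher. Of all tested genes 14.5% were higher and 12.4% lower there. In C1 below B 14 of 14 macrophage and 6 of 6 endothelial markers fell, against 21.1% of all tested genes. So did 4 of 11 fibroblast markers (1 rose), 3 of 8 mesothelial and 3 of 6 smooth muscle markers. Of the 13 transporters higher in B than in A, 8 fell, while Slc36a1, Slc6a8, Slc38a7, Slc7a2 and Slc7a4 were not called. In C3 below B all 13 of these transporters fell, with 14 of 14 macrophage, 6 of 6 endothelial and 8 of 11 fibroblast markers. In the same comparison 8 of 8 mesothelial markers rose. Over all tested genes 24.7% fell and 16.7% rose there. The 13 transporters were picked by their call of B over A, and C1 minus B and C3 minus B use the same B libraries. Genes picked for a high B value tend to be lower against B, so the counts of 8 and 13 are not separate results. The 13 transporters higher in B stood at a median of 16.9% of the B level in A replicate 1 (range 0.104% to 35.0%) and 27.1% in A replicate 2 (range 3.18% to 57.2%), and all 13 were higher in A replicate 2. The macrophage markers stood at 0.041% to 1.01% and 1.07% to 5.7% in the same libraries. Slc7a8 (0.104% and 3.18%) and Slc43a2 (0.346% and 3.71%) lay within those marker ranges, and the other 11 lay above them. In C3 against C2, 10 of 11 fibroblast markers fell and 6 of 8 mesothelial markers rose, against 16.2% and 11.6% of all genes. The part of these cell types in the transporter results was not tested.

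Genes that make, sense or use amino acids were followed in lists chosen with earlier results of these data known. Of 12 genes for serine, glycine and proline synthesis, 9 were higher (75% against 16.7% of all genes) and 1 lower in C3 than in B (median difference 1.53, against -0.06 over all genes). In B against A 6 were lower (50% against 12.4% of all genes; median -1.03, against 0.01 over all genes). Psat1 and Shmt1, which make serine and glycine, led in C3 minus B with 3.55 ± 0.23 (adjusted p = 3.49e-05) and 3.23 ± 0.18 (adjusted p = 1.61e-05), and with 4.50 and 3.93 under quantile normalization. In this direction they moved as Slc7a5 and Slc7a1 did. Of 20 cytosolic aminoacyl-tRNA synthetases, which load amino acids onto tRNA, 6 rose in C3 against B (30% against 16.7% of all genes) and none fell (median 0.76), led by Vars (1.33 ± 0.23) and Rars (1.24 ± 0.17).

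Of 21 genes of the ATF4 response, 2 rose and 9 fell in C3 against B (median -0.59), shares of 9.52% and 42.9% against 16.7% and 24.7% of all genes. In B against A 3 rose and 2 fell (median -0.35), shares of 14.3% and 9.52% near the 14.5% and 12.4% of all genes. The largest differences were those of Atf3, a stress-induced transcription factor, which was higher in B than in A (5.89 ± 1.01, adjusted p = 0.00394) and lower in C3 than in B (-5.74 ± 1.01, adjusted p = 0.00246), and under quantile normalization these were 3.64 and -3.08. Without A replicate 1 or 2 B minus A of Atf3 was 4.58 or 7.2, and without C3 replicate 1 or 2 C3 minus B was -4.64 or -6.83. Atf4 itself was not called in any comparison. Asns, which makes asparagine, was lower in B than in A by 1.71 (-1.71, called) and higher in C3 than in B (2.11, called); the call against A ended in a fit of the 4 compared libraries (adjusted p = 0.0521). Of 27 tested genes of amino acid sensing by mTORC1, 6 rose and 1 fell in B against A (median 0.05), shares of 22.2% and 3.7% against 14.5% and 12.4% of all genes. In C3 against B 2 rose and 7 fell (median -0.27), and the share that fell, 25.9%, was near the 24.7% of all genes. Mtor was not called. Rragd, a GTPase that recruits mTORC1 to lysosomes, was lower in C3 than in B (-6.71 ± 1.22, adjusted p = 0.00285, -5.98 and -7.44 without C3 replicate 1 and 2, and -4.21 under quantile normalization). Its call of B over A (4.23, adjusted p = 0.0306) was 2.12 without A replicate 1 and 6.34 without A replicate 2, and was lost without any 1 of the B, C1 or C2 libraries, under quantile normalization and in a fit of the 4 compared libraries. The brake Sesn1, which senses leucine, was higher in B than in A (2.45 ± 0.17, adjusted p = 0.000133) and lower in C3 than in B (-3.67 ± 0.17, adjusted p = 8.76e-06, and -2.44 under quantile normalization), the same signs as for Slc38a9 and Slc36a1.

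Arginine enzymes stood beside the cationic carriers. Arg1, the arginase of macrophages, had 14300 and 14900 normalized reads in B, then 2.02 and 1.00 in C1, 1.00 and 3.04 in C2, 3.37 and 1.38 in C3, and 1.68 and 191 in A. It was far higher in B than in the other types. The difference of B minus A was 6.25 without A replicate 1, 13.08 without A replicate 2 and 6.86 under quantile normalization, and its call ended in a fit of the 4 compared libraries (adjusted p = 0.0865). By contrast, for Slc7a2 the difference of C1 minus B was 0.51 (adjusted p = 0.0986). Of 11 tested arginine and polyamine enzymes, 4 rose in B against A (36.4% against 14.5% of all genes, median 0.60). In C3 against C2 5 rose (45.5% against 11.6%) and 1 fell (median 0.91, against 0 over all genes). Among 14 enzymes of glutamine, glutamate and branched-chain amino acids, Bcat1, which acts on leucine, isoleucine and valine, was lower in B than in A (-2.99 ± 0.20, adjusted p = 0.000119), and Glul, which makes glutamine, was lower in C3 than in B (-2.93 ± 0.14, adjusted p = 9.91e-06, -1.99 under quantile normalization). In that list 1 rose and 4 fell in C3 against B (median 0.12), and the share that fell, 28.6%, was near the 24.7% of all genes.

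Of 14 tested amino acid and peptide transporters of other families, 7 rose in B against A (50% against 14.5% of all genes, median 1.09) and 7 fell in C3 against B (50% against 24.7%, median -0.82). Slc15a3, a lysosomal peptide and histidine carrier, and Slc16a10, a carrier of aromatic amino acids, led in B against A with 6.36 ± 1.16 (adjusted p = 0.00501) and 4.47 ± 0.26 (adjusted p = 6.2e-05). Slc15a3 had centred log2 values of 9.24 and 9.15 in B but 0.84 and 4.84 in A. Its difference was 4.35 without A replicate 1 and 8.36 without A replicate 2, and the call ended in a fit of the 4 compared libraries (adjusted p = 0.0716) and under quantile normalization (2.33, adjusted p = 0.133). Of 7 genes of glutathione synthesis, the pathway that uses the cystine brought in by Slc7a11, 4 rose (57.1% against 11.6% of all genes) and 2 fell (28.6% against 16.2%) in C3 against C2 (median 1), the comparison in which Slc7a11 was called. Gclc, part of the first enzyme of that pathway, was among those that rose (1.34 ± 0.26, adjusted p = 0.00582).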

How the data were processed

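Gene expression was measured by RNA sequencing in 10 libraries, grouped by the cell type and replicate number in their titles. The submitters' processing notes list TopHat, DESeq and build mm10 without their roles, and the way reads were counted is not stated there. The values as deposited are log2, and the way the authors scaled them was inferred: for 17821 of 17821 genes with values the median over the 10 libraries is 0. Values were read as log2 of reads over a size factor, raised to at least 1, minus that median. Left out were 17 genes with a cell turned into a date, and 18334 genes were 0 throughout.

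Genes of known level needed 10 normalized reads in 2 libraries, which left 14253 genes. The test was limma 3.58.1 under R 4.3.3, with 1 mean for each cell type over the 10 libraries together (5 residual and 1.93 prior degrees of freedom), two-sided, with Benjamini-Hochberg adjustment within each of 6 comparisons, after a test on simulated data. No trend of the spread with level was modelled and no pseudocount added, because levels are removed and values are logarithms already. Intervals on reads are exact at 95% and cover counting error only. The kit does not mark strand, so reads of overlapping genes cannot be told apart. Gene coordinates are from GENCODE on GRCm38.

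The text gives every library of the 20 called transporters with the largest differences and of 15 chosen by role, together 25, and summarises the other 6 tested. Outside the families the genes named were drawn from the 2 with the largest called difference of a list in a comparison, not all of which are given, with Atf4, Asns, Arg1 and Mtor in any case, and Gclc was chosen after its values were seen. Of the members below the filter 1, and of the listed genes 1, is not reported here. The members and lists were chosen with earlier results of these data known. Alternatives were no filter, a stricter filter, quantile normalization, only the 4 libraries compared, robust empirical Bayes, no minimum difference, a replicate block and leaving out each library.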

Additional observations from a re-analysis of the deposited data

How the results depend on the processing

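The calls of 12 counts (genes and transporters in 6 comparisons) stayed within 1.5 times under no filter, the stricter filter, quantile normalization and robust empirical Bayes. With only the 4 libraries compared, B minus A had 2538 genes and 11 transporters called and C1 minus A 2375 and 6. Without a minimum difference, 7336 genes were called in C1 minus B, 6201 in C1 minus A, 5025 in C2 minus C1 and 6358 in C3 minus C2. Leaving out 1 library gave 17 to 21 transporters in B minus A, 12 to 15 in C1 minus B, 9 to 18 in C1 minus A, 5 to 9 in C2 minus C1, 9 to 14 in C3 minus C2 and 19 to 24 in C3 minus B, and 3183 to 4299, 4244 to 5066, 3103 to 4238, 2174 to 3298, 3248 to 4285 and 5312 to 6107 genes in the same order. The transporter count of C2 minus C1 was 5 without C2 replicate 1 and 5 without C2 replicate 2. Slc6a17 was called in no comparison with all 10 libraries. It changed sign without A replicate 2, to 2.28 in B minus A and 2.42 in C1 minus A. Without A replicate 1 these were -2.90 and -2.76. Both comparisons were called in each of these fits, in opposite directions.

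Quantile normalization raised the share of calls that were higher to 51.4% in C1 minus B, 53.0% in C1 minus A, 55.0% in C3 minus C2 and 53.3% in C3 minus B, against 37.4%, 37.7%, 41.7% and 40.4% as reported, and lowered it to 46.9% against 59.9% in C2 minus C1. It ended 18 transporter calls and added 5, the fit of 4 libraries ended 20 and added 4, and no filter ended 3. In calls kept, quantile normalization moved C1 minus A of Slc38a1, Slc38a5, Slc38a7, Slc7a2 and Slc7a4 to 2.62, 9.63, 3.24, 3.44 and 3.52, C1 minus B of Slc38a5 to 8.93, C2 minus C1 of Slc38a7 to -2.70 and C3 minus C2 of Slc7a4 to -2.16. The causes were not tested.

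Deviations of same-numbered libraries correlated at -0.06 to 0.09, so no large effect shared by replicate number was seen. Such correlations cannot show whether same-numbered libraries share a mouse or culture. With the replicate block all 12 counts stayed within 1.5 times, and the block ended the calls of Slc1a6 in C1 minus A (adjusted p = 0.0628) and C2 minus C1 (adjusted p = 0.0672), where a lost call need not be a weaker effect. In the A and B libraries a count of 0 still allowed up to between 5.04 and 6.88 normalized reads, the value of 3 reads. In C2 replicate 1 it allowed up to 6.12. With that depth and 2 libraries a type, low transporters could not be resolved in these libraries.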
